A study of Mus musculus with 4 samples.

Results

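The nuclear genes that encode subunits of the mitochondrial respiratory chain and ATP synthase were followed in single cells of the mouse carotid artery before and after wire injury. According to the paper, the deep wire injury it used denudes the endothelium and also disrupts the internal elastic lamina. The members were chosen by symbol alone. They are the genes that begin with Ndufa, Ndufb, Ndufc, Ndufs or Ndufv and a number, the genes Sdha, Sdhb, Sdhc and Sdhd, the genes that begin with Uqcr, the genes Cox4 to Cox8 followed by the letter a, b or c, and the genes that begin with Atp5. This gave 82 members of the 31053 genes listed, with 37 in complex I, 4 in complex II, 8 in complex III, 16 in complex IV and 17 in complex V. The complexes were assigned by symbol too, so Ndufa4, which is known as a subunit of complex IV despite its name, and its paralog Ndufa4l2 were counted in complex I. A second identifier for Atp5o, as well as Cox7b2 and Cox8c, had no UMI in any kept cell, Cox8b had 4, and 78 members had at least 20. The rule leaves out Cox4i1, Cox4i2, Ndufab1, Cyc1 and the subunits encoded in mitochondrial DNA.

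The 4 libraries were made from carotid arteries of C57BL/6 mice that were 11 weeks old before injury, with 1 library from day 0 (pre-injury) and 1 each from days 3, 7 and 14 post-injury. According to the methods of the study, carotids of male mice were pooled for each day, thrombosed arteries were not used, dead cells were removed, and a droplet kit counted the 3′ ends of transcripts with unique molecular identifiers (UMIs). Individual animals cannot be told apart in a pool, and with 1 library per day a difference between days cannot be told apart from a difference between libraries. No test was therefore possible. The intervals given below are exact 95% intervals that cover counting error only.

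The respiratory chain sits in the inner mitochondrial membrane. Complexes I and II take electrons from NADH and succinate, complex III passes them through cytochrome c to complex IV, which reduces oxygen, and the protons pumped by complexes I, III and IV drive ATP synthase, or complex V. Most subunits are encoded in the nucleus, whereas a small set at the heart of complexes I, III, IV and V is encoded in mitochondrial DNA, so both genomes have to be expressed for assembly. Several subunits of complex IV exist as tissue isoforms, and Ndufa4l2 is a paralog of Ndufa4 known as a target of the hypoxia response. Neutrophils are known for relying on glycolysis with few mitochondria.

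After filtering, 5408 cells remained, of which 281, 1405, 2693 and 1029 came from days 0, 3, 7 and 14. The median cell had 7959, 5458, 6317 and 10764 UMIs. Some cell barcodes occurred in more than 1 library. The barcode was the same in 152 cells of days 0 and 3, in 64 cells of days 7 and 14 and in 1 cell of days 3 and 7. In 214 of these 217 pairs the deeper copy held over 5 times as many UMIs as the other copy, and each of these 214 shallow copies correlated more closely with its own deep copy than with 1 other deep cell drawn for comparison (median correlations of 0.448 to 0.542 against 0.366 to 0.427). How the barcodes came to be shared was not tested. The shallow copies were left out. The deep copies, which were kept, included 94 of the 234 fibroblast-like cells of day 0, 24 of the 104 of day 3 and 22 of the 186 of day 7. Values without them are given beside the fibroblast-like results or in the closing section, but not for the results by depth of the cells. Clusters were named by marker genes, and the names stand for resemblance alone. All 12 fibroblast markers were at 50 CPM or more in fibroblast-like cells on each day. CPM stands for the UMIs of a gene, or of a group of genes, scaled to the UMIs of all cells of a class in 1 library, so that a share of 1% is 10000 CPM. All 12 smooth muscle markers reached that level in smooth muscle-like cells of day 0, and 10 of them did later. A smooth muscle-like cluster of 89 very deep cells (median 50011 UMIs) also held 9 fibroblast markers, and the largest dendritic-like cluster (500 cells) held 12 macrophage markers beside 8 dendritic ones.

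The promoters of a few members that recur below are shown first, because the nuclear subunits share a small set of regulators, NRF1, GABPA (NRF2) and YY1. The windows were read from RefSeq (GRCm38.p6) and run 5′ to 3′ on the strand of the gene, from 250 bases before its start to 50 bases after. Capitals mark a match to GCGCA and GCGC with any 1 base between them for NRF1, CCGGAAG for GABPA or AAGATGGC for YY1 on either strand. Ndufa5 (chr6:24527477-24527776, minus strand) and Ndufs7 (chr10:80249199-80249498, plus strand), both of complex I, were the members with the lowest day 7 to day 0 ratio in fibroblast-like cells. Cox8a (chr19:7217567-7217866, minus strand) of complex IV was the member with the highest neutrophil to macrophage ratio at day 3, and Cox7a2l (chr17:83514284-83514583, minus strand) had the highest day 7 to day 3 ratio in macrophage-like cells.
Ndufa5: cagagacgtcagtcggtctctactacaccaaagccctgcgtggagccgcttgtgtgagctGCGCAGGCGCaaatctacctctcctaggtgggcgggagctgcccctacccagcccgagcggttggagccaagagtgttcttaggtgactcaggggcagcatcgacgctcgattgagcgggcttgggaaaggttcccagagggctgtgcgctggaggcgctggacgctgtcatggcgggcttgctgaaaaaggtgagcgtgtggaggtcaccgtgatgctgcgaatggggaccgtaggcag
Ndufs7: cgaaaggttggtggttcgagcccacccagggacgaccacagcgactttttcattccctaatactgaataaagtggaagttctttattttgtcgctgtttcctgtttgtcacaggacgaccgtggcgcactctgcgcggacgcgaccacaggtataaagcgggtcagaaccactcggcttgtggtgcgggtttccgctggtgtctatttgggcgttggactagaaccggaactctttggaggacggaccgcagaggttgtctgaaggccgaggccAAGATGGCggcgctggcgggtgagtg
Cox8a: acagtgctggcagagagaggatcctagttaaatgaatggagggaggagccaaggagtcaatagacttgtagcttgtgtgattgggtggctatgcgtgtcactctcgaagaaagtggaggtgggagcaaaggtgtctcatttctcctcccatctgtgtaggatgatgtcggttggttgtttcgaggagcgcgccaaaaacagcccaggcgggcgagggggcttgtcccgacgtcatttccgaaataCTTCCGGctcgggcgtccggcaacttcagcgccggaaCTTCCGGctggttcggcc
Cox7a2l: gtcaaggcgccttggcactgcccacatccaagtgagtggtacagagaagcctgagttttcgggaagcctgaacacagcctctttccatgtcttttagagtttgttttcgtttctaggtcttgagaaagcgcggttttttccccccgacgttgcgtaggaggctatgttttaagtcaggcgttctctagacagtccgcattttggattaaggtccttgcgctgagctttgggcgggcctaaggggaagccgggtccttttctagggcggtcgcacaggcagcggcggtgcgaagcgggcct
The Ndufa5 window held 1 NRF1 match, the Ndufs7 window 1 YY1 match and the Cox8a window 2 GABPA matches on the reverse strand, while none of the 3 motifs was found in the Cox7a2l window. Of the 81 member symbols, 66 had a promoter in the table. An NRF1 match was present in 16 of the 66 (24.2%, against 4.78% of all 27025 promoters of that length), a GABPA match in 15 (22.7% against 9.12%) and a YY1 match in 8 (12.1% against 2.88%). At least 1 of the 3 was found in 34 (51.5% against 15.2%). Complex I held 7 of the 8 YY1 matches, in 7 of its 32 promoters. In complex IV, 3 of 13 promoters held any of the 3 motifs, whereas 8 of 13 did in complex V. A match is a description of the sequence and not a measured binding site.

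Over all kept cells, the members held 1014048 of 60199894 UMIs, or 1.684%. Their share was 1.918%, 1.805%, 1.648% and 1.542% in the libraries of days 0, 3, 7 and 14. The libraries differ in their cell types, so the share was compared within classes. Fibroblast-like cells had 1.896% before injury (1.878 to 1.914) and then 1.828%, 1.480% and 1.516% (1.508 to 1.524 for the last). In smooth muscle-like cells it was 1.688%, 1.882%, 1.659% and 1.721% on the same days, where day 0 rests on 13 cells. Monocyte/macrophage-like cells had 1.750%, 1.658% and 1.533% at days 3, 7 and 14, and dendritic-like cells had 1.926%, 1.861% and 1.574%. These 4 classes therefore lay between 1.480% and 1.926%. Neutrophil-like cells stood below them, at 0.785% at day 3 (0.764 to 0.806) and 1.011% at day 7, and so did B cell-like cells, at 0.994%, 1.034% and 1.087% at days 3, 7 and 14, although from 10, 13 and 21 cells. With each library clustered on its own, the B cell-like value of day 14 was again 1.087%, while that of day 7 was 1.617% from 23 cells, a cluster that held 9 B cell markers but also 7 markers of plasmacytoid dendritic cells, with Siglech and Ccr9 among its leading genes. T cell-like cells had 2.019%, 1.561%, 1.578% and 1.649% at days 0, 3, 7 and 14, of which day 0 rests on 18 cells. The median T cell-like cell was at 1.59%, 1.52%, 1.38% and 1.4% on these days, so that day 0 stood less apart by cell medians.

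**Figure D1:**
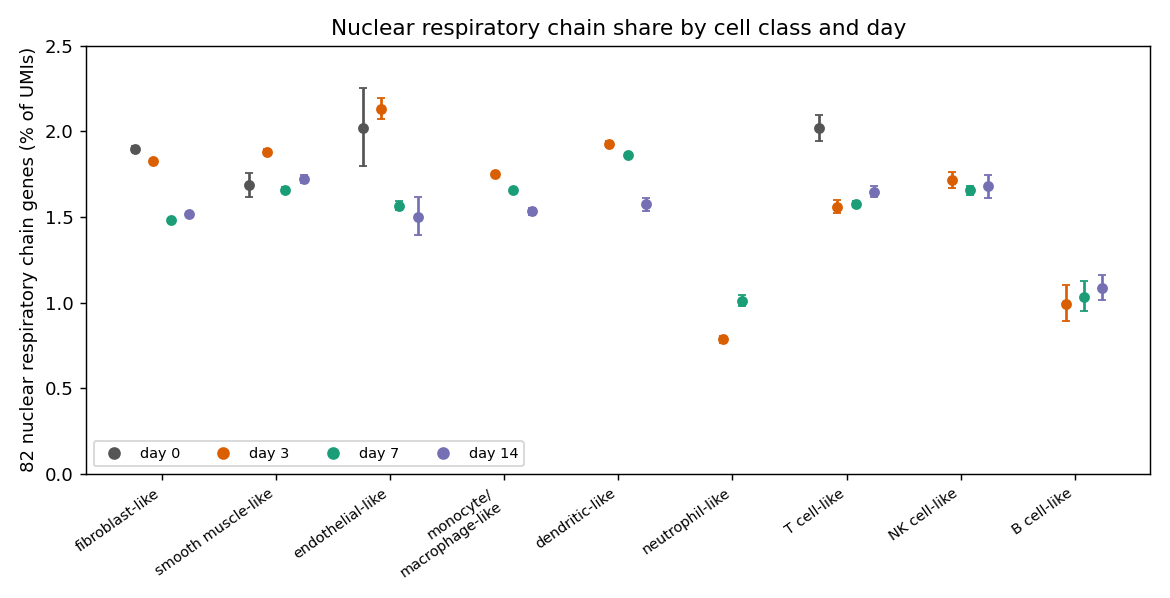
Share of all UMIs (%) held by the 82 nuclear respiratory chain genes in each cell class on each day; each point is 1 library's cells of that class summed, and bars are exact 95% intervals that cover counting error only. Neutrophil-like cells (0.785% and 1.011%) and B cell-like cells (0.994% to 1.087%, from 10 to 21 cells) lie below the other classes as drawn, and fibroblast-like cells are at 1.896% and 1.828% at days 0 and 3 and at 1.480% and 1.516% at days 7 and 14.

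The share also moved with the depth of the cells. Each class and day was split into a shallow, a middle and a deep group of nearly equal cell numbers. In macrophage-like cells of day 3 the member share was 1.012%, 1.556% and 1.936% from shallow to deep, while the mitochondrially encoded subunits took 11.11%, 6.037% and 3.812% of the UMIs. T cell-like cells of day 14 went the same way, with 0.951%, 1.432% and 1.927%. Fibroblast-like cells of day 0 went the opposite way, with 3.057%, 2.030% and 1.711%, whereas those of day 7 had 1.120%, 1.280% and 1.589%. Depth was therefore matched in the comparisons below where cell numbers allowed it, and its part in the other results was not tested.

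**Figure D2:**
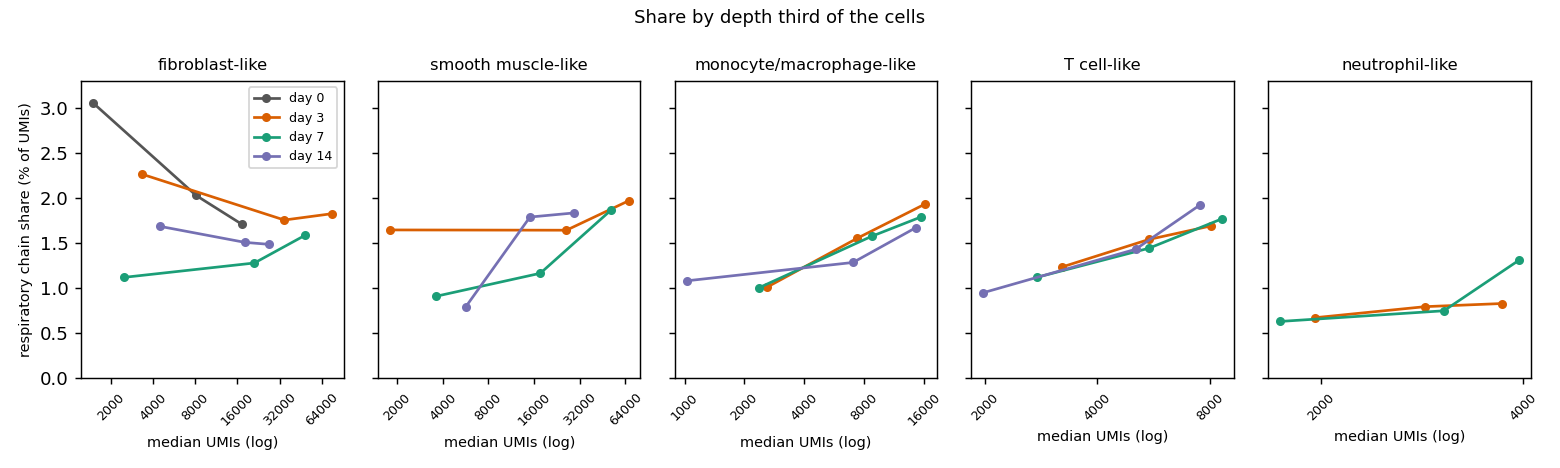
Share of UMIs (%) held by the member genes in the shallow, middle and deep cells of each class, plotted against the median UMI count of each group (log axis); 1 line per day. The share is higher in deeper macrophage-like (1.012% to 1.936% at day 3) and T cell-like cells, and lower in deeper fibroblast-like cells of day 0 (3.057% to 1.711%).

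The first comparison asked whether fibroblast-like cells of the injured vessel differed from those of the uninjured vessel. The members summed to 18956 CPM before injury and to 18283, 14800 and 15160 CPM on the 3 later days. The day 3 level was 0.965 of the day 0 level (0.953 to 0.976), the day 7 level 0.781 (0.771 to 0.790) and the day 14 level 0.8 (0.791 to 0.809). These 3 comparisons share the day 0 cells. At day 7, 12 of 76 members with at least 20 UMIs over both days were at least 1.5-fold lower, against 19.1% of all genes past the same minimum, and 1 was at least 1.5-fold higher, against 18.2%. The share of members past 1.5-fold was thus near or below that of all genes. It was the direction that was shared, since 63 of the 76 had a ratio below 1, with a median of 0.783 where the median of all genes was 0.962. At day 14, 5 members were at least 1.5-fold lower (12.4% of all genes) and 1 higher (16.1%), and 69 of 76 lay below 1, with a median of 0.798 against 0.984. Day 3 had 4 members lower (23.8%) and 2 higher (16.2%), and 42 of 76 below 1. The higher member at days 7 and 14, and one of the 2 at day 3, was Atp5s, coupling factor B, at only 2.70 CPM at day 0 and 6.34 at day 14; it was singled out after its values were seen.

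Complex I, the NADH-oxidising entry of the chain, stood furthest from day 0. Its 37 members summed to 7311, 6445, 5215 and 5568 CPM over the 4 days, which is 0.713 of the day 0 level at day 7 (0.699 to 0.728). Of the 12 members at least 1.5-fold lower at day 7, 10 belonged to complex I. Complexes III, IV and V were at 0.837, 0.803 and 0.828 of day 0 on that day. Complex II, succinate dehydrogenase, was at 0.909 (0.828 to 0.999) and came nearest to the day 0 level. The ratio of complex I to complex V in summed CPM was 1.35 before injury (1.32 to 1.38), 1.16 on days 3 and 7 and 1.23 on day 14, whereas macrophage-like cells stayed at 0.936, 0.897 and 0.923 at days 3, 7 and 14. With Ndufa4 and Ndufa4l2 counted in complex IV, a setting chosen after seeing the data, complex I was at 0.711 and complex IV at 0.793 of day 0 at day 7, and 9 of the 12 members belonged to complex I. The order of complexes changed at day 14, however, from 0.762 and 0.804 for complexes I and IV to 0.778 and 0.774. When the deep copies of shared barcodes were left out, complex I was at 0.553 at day 7 and complexes II to V between 0.632 and 0.850.

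Ndufa5, an accessory subunit of complex I (ENSMUSG00000023089), was at 252, 150, 108 and 152 CPM on days 0, 3, 7 and 14. Ndufs7, a core subunit that carries an iron-sulfur cluster (ENSMUSG00000020153), was at 193, 102, 86.4 and 122 CPM on the same days. Both were highest at day 0 and lowest at day 7, with day 7 to day 0 ratios of 0.429 (0.380 to 0.485) and 0.448 (0.391 to 0.515). Ndufa1, which is needed for complex I assembly, was at 375, 269, 204 and 238 CPM over the days, and Ndufb10 of the membrane arm at 254, 157, 140 and 169. They were likewise highest at day 0 and lowest at day 7, and so was Ndufb9, with 285, 225, 169 and 209 CPM. Outside complex I, the members at least 1.5-fold lower at day 7 were Uqcr10 of complex III (0.619) and Cox8a of complex IV, whose level went from 771 CPM at day 0 to 609, 494 and 576. In the cells that were not deep copies of shared barcodes, Ndufa5 was at 357, 164, 104 and 152 CPM and Ndufs7 at 246, 119, 88.2 and 122, again highest at day 0 and lowest at day 7.

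Of the 76 members with at least 20 UMIs over both days compared, 34, 13 and 7 lay above their level before injury on the 3 later days. Atp5a1, the alpha subunit of the catalytic F1 head, was at 181, 271, 218 and 196 CPM over the 4 days, so its day 3 level was 1.49 times that of day 0 (1.33 to 1.67) and its day 7 level 1.2 times (1.07 to 1.35). Ndufa9 of complex I was at 25.2, 36.8, 35.6 and 32.6 CPM. Sdhc, a membrane anchor of succinate dehydrogenase, was at 48.1, 74.6, 57.0 and 45.4 CPM, and its day 3 ratio of 1.55 (1.24 to 1.95) was the highest of the members with at least 50 UMIs. None of the other complex II members was past 1.5-fold, with Sdha, the flavoprotein, at 90.3, 72.4, 68.9 and 65.2 CPM, Sdhb at 103, 107, 90.9 and 86.0 and Sdhd at 64.2, 73.6, 61.3 and 62.4. The 3 genes for the c ring of ATP synthase, Atp5g1, Atp5g2 and Atp5g3, encode an identical mature protein. Their sum was 1.26 times that of day 0 at day 3 (1.19 to 1.33) and 0.901 times at day 7.

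**Figure D3:**
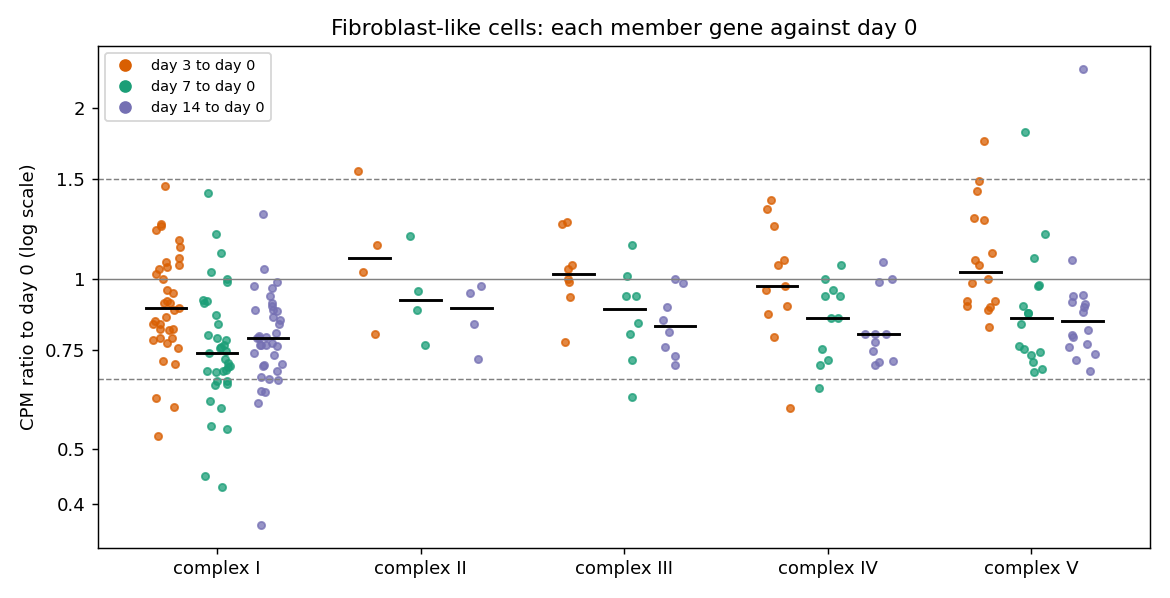
Ratio of each member's CPM in fibroblast-like cells at days 3, 7 and 14 to day 0 (log axis), by complex; each point is 1 gene with at least 20 UMIs over both days, black bars are medians and dashed lines mark 1.5-fold in either direction. At day 7 the complex I genes have the lowest median (0.740), and 10 of the 12 genes below the lower dashed line belong to it.

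Other genes of the same pathways did not all go with the members. The counts that follow stand against 18.2% of all genes higher and 19.1% lower at day 7, 16.2% and 23.8% at day 3 and 16.1% and 12.4% at day 14. The 13 mitochondrially encoded subunits summed to 1.56 times the day 0 level at day 7, with 4 of 13 at least 1.5-fold higher and 1 lower, and to 0.888 times at day 14. Mitochondrially encoded UMIs made up 2.834%, 3.010%, 4.426% and 2.516% of the UMIs of fibroblast-like cells over the days. The ratio of mitochondrially encoded to nuclear subunits was thereby 1.5, 1.65, 2.99 and 1.66 over the 4 days, and day 7 stood apart. Complex I assembly factors went with complex I, at 0.699 of day 0 at day 7 (5 of 14 lower, none higher). Mitochondrial ribosomal proteins were at 0.810 (17 of 77 lower, a share near that of all genes, and none higher). Genes of the tricarboxylic acid cycle were at 0.932, with 1 of 16 higher and none lower, and glycolysis genes were at 1.11, with 6 of 16 higher and 2 lower. Glycolysis was at 1.69 at day 3 (8 of 16 higher, 1 lower) and at 0.693 at day 14 (1 higher, 5 lower), so its order of days was not that of the members.

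Different clusters made up the fibroblast-like cells on each day. Day 0 came almost wholly from a cluster led by Serpinf1 and Rbp4 (203 cells) and a cluster led by Igfbp5 and Pi16 (25 cells). The largest clusters of day 3 were led by Saa3 and Mmp3 (44 cells) and by Dcn and Serpinf1 (38), and those of day 7 were the Dcn and Serpinf1 cluster (84) and a cluster led by Serpinf1, Dcn and Angptl1 (34). The latter held 247 of the 517 cells of day 14, beside 98 in the Dcn and Serpinf1, 96 in the Serpinf1 and Rbp4 and 46 in the Igfbp5 and Pi16 cluster. The member genes had no part in the clustering. In the Serpinf1 and Rbp4 cluster, which held 203 cells at day 0 and 96 at day 14, the member share was 1.940% and 1.960%, a ratio of 1.01 (0.992 to 1.03), with the median cell at 1.95% and 2.23%, and none of 75 members was past 1.5-fold, against 7.97% of all genes higher and 19.2% lower. The few cells of the other days in that cluster lay above day 0, at 2.695% at day 3 (2.596 to 2.796, 19 cells, median 2834 UMIs) and 2.134% at day 7 (2.052 to 2.218, 16 cells). In the Igfbp5 and Pi16 cluster it was 1.727% at day 0 and 1.437% at day 14 (ratio 0.832, 0.808 to 0.856), with 12 of 73 members at least 1.5-fold lower (14.9% of all genes) and none higher (20.4%). Of its 25 cells of day 0, 19 were deep copies of shared barcodes, and the other 6 had 2.375%, which puts the day 14 ratio at 0.605 (0.560 to 0.655). The cluster led by Serpinf1, Dcn and Angptl1 had 1.255% at day 7 and 1.435% at day 14. With all kept cells this was the lowest share of the 4 of these clusters with at least 10 cells at day 7, and level with the Igfbp5 and Pi16 cluster at day 14. Without the deep copies it was at 1.239% at day 7, and the Saa3 and Mmp3 cluster lay lower, at 1.168% from 12 cells. The difference between days 0 and 14 was thus not the same in each cluster, and with all kept cells it was not seen in the cluster with the most day 0 cells.

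From day 3 to day 7 the share was lower within clusters as well. The Dcn and Serpinf1 cluster had 1.852% at day 3 and 1.531% at day 7 (ratio 0.826, 0.813 to 0.841), and the Saa3 and Mmp3 cluster had 1.786% and 1.491% (0.835, 0.820 to 0.850). These ratios were, without the deep copies, 0.774 (76 and 36 cells) and 0.717 (12 and 22 cells). In the Dcn and Serpinf1 cluster the 5 complexes were alike, with ratios between 0.816 and 0.838, and 1 of 75 members was at least 1.5-fold lower (Cox5b, 405 CPM at day 3 and 263 at day 7, against 11.5% of all genes) and 1 higher (Cox6b2, 4.42 and 13.1 CPM, against 15.6%). The median UMI counts of that cluster were close on both days, at 27577 and 28347.5. Among fibroblast-like cells of 10000 to 30000 UMIs in any cluster, the 46 cells of day 7 were at 0.712 of the 107 cells of day 0 (0.696 to 0.727), and the 338 cells of day 14 at 0.856. Mitochondrially encoded UMIs were 6.937% of the total in these cells of day 7, against 2.825% at day 0 and 2.428% at day 14, and their part in the day 7 result was not tested. At that depth 25 of 75 members were at least 1.5-fold lower at day 7, against 22.7% of all genes, and none was higher, against 17.1%. Ndufa5 (0.393) and Ndufs7 (0.488) were again the lowest. The day 3 ratio was 1.09 at that depth, on the other side of 1, from 21 cells. Deep copies of shared barcodes were not left out of these cells of 10000 to 30000 UMIs. Those of day 0 had a median of 17059 UMIs over all cell classes, and no value at that depth is given without them. Without the deep copies of shared barcodes the day 0 share was 2.262% from 140 cells (median 3802.5 UMIs), and the ratios to day 0 were 0.798, 0.621 and 0.670 at days 3, 7 and 14. The Serpinf1 and Rbp4 cluster of day 0 was at 2.263%, above the 1.960% of day 14 (ratio 0.866, 0.847 to 0.886). Leaving out the copies also lowered the median of its day 0 cells from 7913 to 3681 UMIs, against 6766.5 at day 14. Depth was not matched in the ratios without the deep copies, and its part in them was not tested.

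Ndufa4l2 (ENSMUSG00000040280) was the member most restricted to a cell class among those with at least 20 UMIs, followed by Cox6a2, with 78% of 191 UMIs in dendritic-like cells. Of its 3490 UMIs, 94.2% were in fibroblast-like cells, where 584 of 1041 cells had at least 1. Its level in these cells was 277 CPM before injury (256 to 300), followed by 226, 183 and 102 CPM (95.4 to 109 for the last), so it was lower on each later day. Smooth muscle-like cells had 0, 18.4, 22.7 and 3.64 CPM, with 141 of their 150 UMIs in the very deep cluster that also held fibroblast markers. Macrophage-like cells had 0.420, 0.799 and 2.10 CPM at days 3, 7 and 14, and neutrophil-like cells had none in 351 cells. With every cell thinned to 1000 UMIs, 26.4%, 17.6%, 10.9% and 11.7% of fibroblast-like cells had a UMI over the 4 days, against 69.2%, 80.8%, 58.1% and 44.5% before thinning. Thinning left out 26, 2, 12 and 29 shallower cells. In macrophage-like cells of day 7, which serve as background, the thinned share was 0.225% (0.763% before thinning, median 8719 UMIs against 21161 in fibroblast-like cells). The paralog Ndufa4, by contrast, was found in each class, with 485, 600, 378 and 369 CPM in fibroblast-like cells.

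The level of Ndufa4l2 differed more between fibroblast-like clusters than between days. In the Serpinf1 and Rbp4 cluster it was 346 CPM in the day 0 cells (319 to 375) and 349 CPM in the day 14 cells (311 to 390), with 207 and 463 CPM at days 3 and 7 from 19 and 16 cells. In the Igfbp5 and Pi16 cluster, the other main cluster of day 0, it was 12.3 CPM at day 0 and 8.96 at day 14. These 2 clusters thus lay far apart on both days. The Dcn and Serpinf1 cluster had 311, 251 and 210 CPM at days 3, 7 and 14, and the Saa3 and Mmp3 cluster had 193 and 114 at days 3 and 7. The lowest level after injury outside the Igfbp5 and Pi16 cells was in the Serpinf1, Dcn and Angptl1 cluster, with 69.5 CPM at day 7 and 35 at day 14, which held 247 of the 517 fibroblast-like cells of day 14. Within the last 3 clusters the later day was lower, and in the Serpinf1 and Rbp4 cluster the intervals of days 0 and 14 overlapped. Among fibroblast-like cells of 10000 to 30000 UMIs, Ndufa4l2 was at 224, 373, 233 and 107 CPM over the 4 days, so that at this depth day 0 was not the highest. The deep copies of shared barcodes were not left out of these cells. Without the deep copies of shared barcodes, the day 0 level was 445 CPM in the class, 469 CPM in the Serpinf1 and Rbp4 cluster and 35.4 CPM in the 6 remaining cells of the Igfbp5 and Pi16 cluster, and the day 7 level of the Saa3 and Mmp3 cluster was 22.4 CPM from 12 cells in place of 114 from 24.

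**Figure D4:**
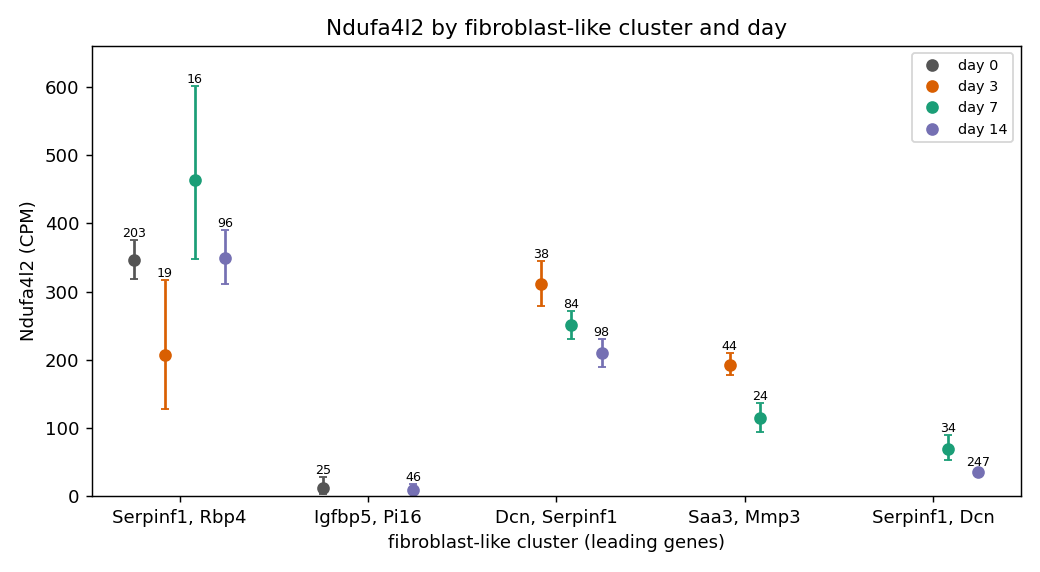
Level of Ndufa4l2 (CPM) in 5 fibroblast-like clusters, named by their leading genes, on each day with at least 10 cells; bars are exact 95% intervals that cover counting error only, and the number above each bar is the number of cells. The Serpinf1 and Rbp4 cluster is at 346 CPM at day 0 and 349 at day 14, and the Igfbp5 and Pi16 cluster is at 12.3 and 8.96.

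Ndufa5 and Ndufs7 differed less between clusters. Ndufa5 was at 264 CPM at day 0 and 256 at day 14 in the Serpinf1 and Rbp4 cluster, but at 214 and 110 in the Igfbp5 and Pi16 cluster, and at 179, 120 and 164 at days 3, 7 and 14 in the Dcn and Serpinf1 cluster. Ndufs7 was at 198 and 185 CPM, at 175 and 105, and at 115, 85.7 and 117 in the same clusters and days. The low value at day 7 was therefore present within the Dcn and Serpinf1 cluster for both genes, and of the 2 clusters measured at days 0 and 14 the levels were close in the Serpinf1 and Rbp4 cluster and apart in the other. The 19 and 16 cells of days 3 and 7 in the Serpinf1 and Rbp4 cluster had 395 (282 to 537) and 219 CPM of Ndufa5. Their Ndufs7 level was 168 CPM on both days. Ndufa5 was thus highest at day 3 in that cluster. Ndufa1 was at 416, 888, 463 and 439 CPM there over the 4 days, lowest at day 0, unlike in the class. Without the deep copies of shared barcodes, the day 0 levels in the Serpinf1 and Rbp4 cluster were 370 CPM for Ndufa5 and 247 for Ndufs7, and in the 6 remaining Igfbp5 and Pi16 cells 212 and 248.

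Smooth muscle-like cells were compared from day 3 on, since day 0 held 13 of them. The summed member level of day 7 was 0.882 of that of day 3 (0.872 to 0.892), and that of day 14 was 0.914 (0.901 to 0.928). At day 7, 4 of 77 members were at least 1.5-fold lower, against 7.59% of all genes, and none was higher, against 13%. The 4 were Cox7a1, Cox6b2, Ndufa4 and Ndufa11, of which the first 2 were at most 10.8 CPM on either day. Ndufa4 was at 619 CPM at day 3, 397 at day 7 and 518 at day 14, and Ndufa11 at 239 at day 3 and 158 at day 7, so that Ndufa4 was lowest at day 7. The difference was larger in the cluster led by the contractile genes Tagln and Myh11, where the share was 1.794% at day 3, 1.158% at day 7 and 1.733% at day 14, from 47, 42 and 66 cells, with a day 7 ratio of 0.645 (0.628 to 0.662) and a day 14 ratio of 0.966 (0.948 to 0.984). The median cell of that cluster was at 1.16%, 0.751% and 1.61% on these days, so that by cell medians day 14 lay above day 3, whereas day 7 was again the lowest. In that cluster 38 of 73 members were at least 1.5-fold lower at day 7, against 15% of all genes, and none was higher, against 19.3%. Complex V had the lowest ratio (0.594) and complex II the highest (1.05). The mitochondrially encoded subunits took 6.895% of the UMIs at day 3, 10.49% at day 7 and 5.923% at day 14, and the median UMI counts were 21073, 13469 and 15177. The part of depth and of the mitochondrial UMIs in this result was not tested. Fibroblast markers summed to 16626, 20008.7 and 13379.4 CPM in the smooth muscle-like class at days 3, 7 and 14, and without the very deep cluster that held 9 of these markers the day 7 ratio of the class was 0.767.

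The day 14 ratio changed side with depth, being 1.24 among cells of 10000 to 30000 UMIs. At day 14 smooth muscle-like cells had 8 of 77 members at least 1.5-fold lower than at day 3 (25.3% of all genes) and none higher (17.1%). Different clusters made up the class on these days. The Tagln and Myh11 cluster held 47 of its 121 cells at day 3 and 66 of 79 at day 14. The very deep cluster held 38 and 7. Within the Tagln and Myh11 cluster, 2 of 73 members were at least 1.5-fold lower (11.9% of all genes) and 1 higher (12.8%). Smooth muscle markers summed to 15473.5 CPM at day 3 and 39841.3 at day 14 in the class. Over the whole class, whose clusters differed between days, Cox5a was at 305 CPM at day 3, 284 at day 7 and 139 at day 14 (ratio 0.455, 0.389 to 0.530). Cox5a helps to hold the catalytic core of complex IV. Uqcrq of complex III was at 0.603 and Atp5g2 of the c ring at 0.640 of day 3. Complex I was at 1.00 of day 3, and Ndufv3, Ndufb3 and Ndufs7 lay above day 3 with ratios of 1.47, 1.43 and 1.40. Against fibroblast-like cells of day 14, the share was 1.14 times as high (1.12 to 1.15) but 0.908 times as a mean over cells, and 6 of 76 members were at least 1.5-fold higher (20% of all genes) and 2 lower (25.7%). Sdhc was at 83.0 CPM in smooth muscle-like and 45.4 in fibroblast-like cells, Ndufb3 at 240 and 132, and Ndufb7 at 191 and 107. The lower ones were Ndufa4l2 and the scarce Atp5s. The mitochondrially encoded subunits differed far more, with 13 of 13 at least 1.5-fold higher and a summed ratio of 2.18.

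In monocyte/macrophage-like cells the day 7 share was 0.947 of the day 3 share (0.939 to 0.955), and the day 14 share was 0.876 of it (0.863 to 0.889). Erythroid markers summed to 699.2, 2342 and 8.406 CPM in these cells at days 3, 7 and 14. Platelet markers summed to 2468, 819.4 and 703.3 CPM. The part of these markers in the ratios was not tested. Different clusters made up the class over time. A cluster led by Pf4 and Lyz2 held 279 of the 507 cells of day 3, clusters led by Lyz2 and Il1b (377 cells) and by C1qb and C1qc (266) held most of the 917 cells of day 7, and the latter held 105 of the 181 cells of day 14. Within clusters, the day 7 to day 3 ratio was 1.05 in the Pf4 and Lyz2 cluster, 1.01 in a cluster led by Lyz2, Pf4 and Ccl12, 0.988 (0.966 to 1.01) in the C1qb and C1qc cluster and 0.922 in the Lyz2 and Il1b cluster, so the lower level of the class was not present in each. A shallow cluster led by Lyz2 and Csf1r (median 2600 and 2172 UMIs, with 15.77% and 14.02% mitochondrially encoded) had 0.782% at day 3 and 1.457% at day 7, a ratio of 1.86 (1.76 to 1.97) from 75 and 146 cells, with 49 of 73 members at least 1.5-fold higher, against 17.7% of all genes, and none lower, against 19.6%. This holds for the summed UMIs alone, since the median cell of that cluster was at 0.748% at day 3 (quartiles 0.529 and 0.964) and 0.676% at day 7 (quartiles 0.45 and 1.05). The day 14 to day 3 ratio was 0.897 in the C1qb and C1qc cluster and 0.621 in the Lyz2 and Csf1r cluster, where day 14 had 25 cells. Over the whole class at day 7, 2 of 77 members were at least 1.5-fold higher (11% of all genes), namely Cox7a2l and the scarce Cox6a2, and Cox7a1 alone was lower (14.7%). Day 14 had 2 higher (12.2%), Cox7a2l and Atp5s, and 7 of 76 lower (24%), among them Ndufv3 (0.624), Cox7b (0.637), Ndufb6 (0.646) and Ndufa3 (0.651). Over the same interval the mitochondrially encoded subunits were at 0.535 (11 of 13 lower), glycolysis genes at 0.6 (10 of 16 lower) and cytosolic ribosomal proteins at 1.23. The members thus lay nearer to day 3 than the mitochondrially encoded subunits did.

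Cox7a2l lay furthest above day 3 among the members with at least 50 UMIs. It was at 139 CPM in macrophage-like cells at day 3, 260 at day 7 and 254 at day 14, which is 1.87 times the day 3 level (1.72 to 2.04) and 1.83 times (lower bound 1.6, upper bound 2.08). Within the cluster led by C1qb and C1qc it was at 150, 314 and 258 CPM, so the day 3 value was the lowest in that cluster as well. Endothelial-like cells had 108 CPM at day 3 and 246 at day 7, smooth muscle-like cells 122 and 183, and dendritic-like cells 229 and 300. In each of these 4 classes the day 3 level was thus the lower. T cell-like cells had 294 and 340 CPM, fibroblast-like cells 163 and 175, and neutrophil-like cells 89.2 and 87.4. Cox7a2, its paralog in complex IV, was at 357, 350 and 339 CPM in macrophage-like cells. Atp5c1, the gamma subunit of the rotor of ATP synthase, was at 216, 296 and 268 CPM, and at 1.80 times day 3 at day 7 within the C1qb and C1qc cluster (1.46 to 2.24).

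Neutrophil-like cells had the lowest respiratory chain levels of the larger classes. At day 3 the members summed to 7848 CPM in 233 neutrophil-like cells and to 17496 CPM in 507 macrophage-like cells, a ratio of 0.449 (0.436 to 0.461). Of 75 members, 68 were at least 1.5-fold lower, against 50.1% of all genes, and none was higher, against 21%. All 8 members of complex III, 33 of 36 of complex I, 14 of 15 of complex V, 11 of 12 of complex IV and 2 of 4 of complex II were at least 1.5-fold lower. Complex III had the lowest ratio of the 5 (0.382) and complex II the highest (0.553), and the c ring of ATP synthase was at 0.221. Sdhc was at 7.43 CPM in neutrophil-like and 76.1 in macrophage-like cells, Ndufc2 at 22.3 and 201, and Cox7c at 137 and 677. The members not past 1.5-fold were Cox8a, Sdha, Sdhd, Ndufa7, Ndufb9, Ndufv1 and Atp5l. Cox8a was at 703 CPM in neutrophil-like and 619 in macrophage-like cells, the only member above 1 at that day (1.14, 1.03 to 1.25).

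The mitochondrially encoded subunits were lower still in neutrophil-like cells, at 0.124 of the macrophage-like level, with 13 of 13 at least 1.5-fold lower. Glycolysis genes were level, at 4552 and 4529 CPM, with 4 of 16 higher and 2 lower, and genes of the hypoxia response were at 2.16 times (6 of 9 higher, 2 lower). Cytosolic ribosomal proteins were at 0.319 (85 of 89 lower) and mitochondrial ribosomal proteins at 0.535 (66 of 77 lower), against 50.1% of all genes lower and 21% higher, so genes outside the respiratory chain were also lower. The neutrophil-like cells were shallower, with a median of 2859 UMIs against 7415. Among cells of 1000 to 5000 UMIs (217 neutrophil-like, 174 macrophage-like) the share was 0.796% against 1.027%, a ratio of 0.775 (0.746 to 0.806). In these cells 37 of 73 members were at least 1.5-fold lower (44.2% of all genes) and 5 higher (22.7%). The shallow macrophage-like cells differed in other ways as well, since 10.74% of their UMIs were mitochondrially encoded, against 0.559% in the neutrophil-like cells.

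At matched depth complex IV was at 1.08 of the macrophage-like level (0.993 to 1.17), but at 0.827 (0.754 to 0.907) when Cox8a was left out, a setting chosen after seeing the data. Complexes II and V were at 0.775 and 0.777, complex III at 0.699 and complex I at 0.623. The 5 members at least 1.5-fold higher in neutrophil-like cells were Sdhd (64.8 against 21.4 CPM, ratio 3.03, 1.53 to 6.54), Cox8a (722 against 256, 2.82), Ndufb9 (2.27), Ndufa7 (2.16) and Atp5l (1.68). Among the lowest were Sdhc (0.123), Ndufa10 (0.131), Ndufa11 (0.149), Ndufv3 (0.207) and Ndufc2 (0.230). The anchors of complex II thus stood at opposite ends, with Sdhd among the highest and Sdhc the lowest of the members drawn. At day 7, again among cells of 1000 to 5000 UMIs (94 neutrophil-like, 268 macrophage-like), the ratio of the summed members was 0.862 (0.822 to 0.903), with 29 of 73 members at least 1.5-fold lower (43.6% of all genes) and 5 higher (20% of all genes). The 5 were Sdhd (3.26), Cox8a (2.08), Ndufa7 (1.98), Cox7a2 (1.68) and Cox6a1 (1.6), and among the lower were Sdhc (0.319) and Ndufc2 (0.249). Complex IV of these cells was at 1.14 (1.04 to 1.25), and at 0.975 (0.877 to 1.08) without Cox8a. From day 3 to day 7 the share of all neutrophil-like cells was 1.29 times as high (1.24 to 1.34), but 1.05 times (lower bound 1.00, upper bound 1.1) among cells of 1000 to 5000 UMIs. Over all cells of day 7, the neutrophil-like level was 0.610 of the macrophage-like level (0.590 to 0.630), with 48 of 77 members at least 1.5-fold lower (40.8% of all genes) and none higher (22.6%).

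**Figure D5:**
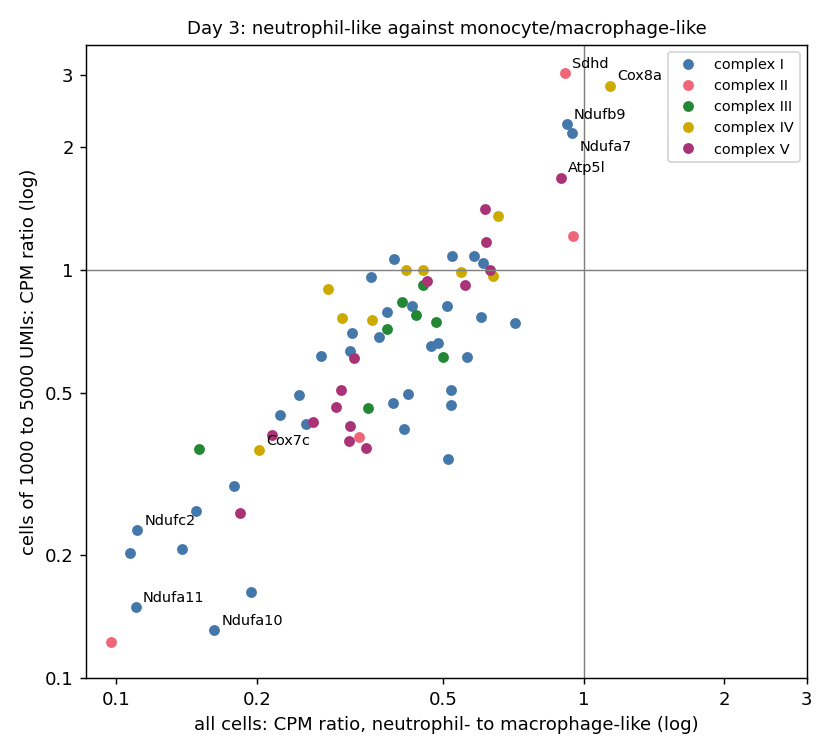
CPM ratio of neutrophil-like to monocyte/macrophage-like cells at day 3 for 73 members, over all cells (horizontal, log axis) and over cells of 1000 to 5000 UMIs (vertical, log axis), coloured by complex. Cox8a (1.14 and 2.82) and Sdhd (0.910 and 3.03) lie at the upper right, and Ndufc2 (0.111 and 0.230) and Ndufa11 (0.110 and 0.149) at the lower left.

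Isoforms of complex IV known from heart and skeletal muscle were scarce in the vessel. Cox6a2 had 191 UMIs in all, against 13469 for its ubiquitous paralog Cox6a1. Of these, 149 were in the largest dendritic-like cluster, and 147 were in 11 of the 43 cells with a UMI of Siglech, a marker of plasmacytoid dendritic cells. Its level in dendritic-like cells was 0 at day 3, 28.9 CPM at day 7 (24.3 to 34.1) and 19.7 at day 14 (8.51 to 38.9), where 0 UMIs in 182 cells of day 3 allow up to 1.02 CPM (3 UMIs). These UMIs lay in 12 of the 600 dendritic-like cells, so the levels depend on how many such cells were caught. The intervals and the limit do not cover that. Macrophage-like cells had 1.26, 2.28 and 3.50 CPM. Cox7a1 had 224 UMIs, of which 131 were in macrophage-like cells at 15.3, 6.16 and 2.80 CPM at days 3, 7 and 14, so it was scarcer on each later day. Cox6b2, known from testis, had 577 UMIs, 248 of them in fibroblast-like cells at 13.0, 7.71, 13.9 and 13.9 CPM over the 4 days, against 404, 499, 345 and 312 CPM of Cox6b1.

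Fibroblast-like and macrophage-like cells of day 7 were set side by side because the 2 classes met in the same library. The share of the members was 0.893 in fibroblast-like relative to macrophage-like cells (0.885 to 0.901), with 8 of 78 members at least 1.5-fold higher (35.2% of all genes) and 6 lower (28.3%). With the complexes assigned by symbol, complex I was higher in fibroblast-like cells (1.09), whereas complex IV was lower (0.740), with the other complexes at 0.844 to 0.883. The complex I value included Ndufa4 and Ndufa4l2, the latter at 183 CPM in fibroblast-like and 0.799 in macrophage-like cells. Without both genes, the ratio of complex I to complex V was 1.04 in fibroblast-like cells in place of 1.16. In macrophage-like cells it was 0.854 in place of 0.897. With both genes, complex I summed to 5215 CPM in fibroblast-like and 4775 CPM in macrophage-like cells. Without them the fibroblast-like sum was 4654 CPM, while Ndufa4 made up 229 CPM of the macrophage-like sum. The complex ratios between the 2 classes were not recomputed without them, so the 1.09 holds for the assignment by symbol only. Ndufa4 was at 378 CPM in fibroblast-like and 229 in macrophage-like cells, Ndufa11 at 160 and 97.1 and Ndufv3 at 179 and 110. Cox5a was at 166 and 344 CPM and Ndufa6 at 114 and 216. The share of members past 1.5-fold was below that of all genes in both directions.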

How the data were processed

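The authors deposited UMI counts per gene and cell barcode, 1 matrix per library, with Cell Ranger 3.0.2 named in the file header. Barcodes numbered 333, 1689, 3001 and 1138 at days 0, 3, 7 and 14. A minimum of 200 genes and a maximum of 20% mitochondrial UMIs removed 453 barcodes. Also left out were 106 predicted doublets (Scrublet scores at a set rate of 0.8% per 1000 barcodes) and 214 shallow copies of shared barcodes, a step chosen after the data were seen. Counts were scaled to 10000 per cell, and 2000 variable genes, without the members and lists, gave 30 components, 15 neighbours and Leiden clusters at resolution 1 (scanpy 1.11.5, leidenalg 0.10.2). Clusters were named from marker lists by rules made stricter after the data were seen. Levels are summed UMIs over summed UMIs, with Poisson, Clopper-Pearson or conditional binomial intervals (scipy 1.17.1) at 95%, tested on simulated data. Genes with at least 20 UMIs over both groups were compared at 1.5-fold, and the members named are those past it or furthest from 1 with at least 50 UMIs. With 1 library per day no count model was fitted. Members and lists were chosen with earlier results of these data known. How reads from pseudogene copies were assigned was not examined. Alternatives covered clustering, depth, denominators, doublets and shared barcodes.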

Additional observations from a re-analysis of the deposited data

Results flagged for a closer look

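From day 3 to day 7 the member share moved in opposite directions in different classes. Neutrophil-like cells were at 1.29 times their day 3 level, whereas smooth muscle-like cells were at 0.882 and endothelial-like cells at 0.735. The endothelial-like ratio rests on 41 cells of day 3 and 58 of day 7, with medians of 1156 and 1661.5 UMIs. With each library clustered on its own, no cluster of day 3 was named endothelial-like, so that ratio has no counterpart there. With 1 library per day the difference between classes was not tested. Fibroblast markers summed to 955.5 CPM at day 3 and 2416 at day 7 in neutrophil-like cells, and to 1096 and 2126 in endothelial-like cells. Neutrophil markers summed to 50632.4 and 38312.5 CPM in neutrophil-like cells. The part of these markers in the ratios was not tested. In the endothelial-like cluster the median cell was at 2.65% at day 3 and 1.22% at day 7. Among neutrophil-like cells of 1000 to 5000 UMIs the ratio was 1.05. The shallow and middle groups of neutrophil-like cells were lower at day 7 (0.6312% and 0.7495%) than at day 3 (0.6732% and 0.7955%). The deep group was higher, at 1.31% against 0.8299%.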

How the results depend on the processing

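The 10 ratios of the summed member level were recomputed under alternatives, and in 65 cases the value moved beyond its counting interval, in 41 it did not, and in 7 it reached or crossed 1. The counts of members past 1.5-fold in fibroblast-like cells (day 7 to day 0) and macrophage-like cells (day 14 to day 3) stayed within 1.5 times their values under another UMI minimum, own clustering and another denominator, but at matched depth 25 in place of 12 members were lower in the former, and 37 in place of 68 in neutrophil-like against macrophage-like cells of day 3. Without Cox8a, the complex IV ratio of neutrophil-like to macrophage-like cells of 1000 to 5000 UMIs was 0.827 at day 3 and 0.975 at day 7, in place of 1.08 and 1.14. Counting Ndufa4 and Ndufa4l2 in complex IV was run for complexes I and IV in some comparisons only. These were the fibroblast-like comparisons with day 0 and neutrophil-like against macrophage-like cells, at day 7 only in cells of 1000 to 5000 UMIs. Among these, no complex ratio crossed 1. Without the deep copies of shared barcodes, the day 14 to day 0 ratio of the Serpinf1 and Rbp4 cluster was 0.866 in place of 1.01. The cause of the moves was not tested. The fibroblast-like day 3 to day 0 ratio (0.965) was 0.903 as a mean over cells, 0.983 without doublet removal and 0.798 without either copy of shared barcodes, and it reached 1.00 with each library clustered on its own, 1.03 without mitochondrially encoded and ribosomal protein UMIs in the denominator, 1.07 without cells over 30000 UMIs and 1.09 in cells of 10000 to 30000 UMIs. In the same order of settings where they moved it, the day 7 to day 0 ratio (0.781) was 0.616, 0.827, 0.621, 0.830, 0.640 and 0.712, with 0.794 without mitochondrially encoded UMIs in the denominator and 0.813 in cells with at most 10% mitochondrial UMIs. The day 14 to day 0 ratio (0.8) was 0.729 as a mean over cells, 0.789 without mitochondrially encoded and ribosomal protein UMIs, 0.856 in cells of 10000 to 30000 UMIs and 0.670 without either copy.

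The smooth muscle-like day 7 to day 3 ratio (0.882) was 0.672 with own clustering, 0.747 as a mean over cells, 0.718 without doublet removal, 0.762 without cells over 30000 UMIs, 0.945 at up to 10% mitochondrial UMIs, 0.810 in cells of 10000 to 30000 UMIs, 0.856 with all copies of shared barcodes, 0.794 with neither and 0.767 without the cluster with fibroblast markers. The day 14 to day 3 ratio (0.914) was 0.95 with own clustering, 0.840 as a mean over cells, 0.942 without doublet removal, 0.869 without mitochondrially encoded and ribosomal protein UMIs and 0.994 without either copy, but 1.08 without cells over 30000 UMIs and 1.24 in cells of 10000 to 30000 UMIs. The smooth muscle to fibroblast ratio of day 14 (1.14) was 1.16 with own clustering, 1.17 without mitochondrially encoded UMIs, 1.07 without cells over 30000 UMIs, 1.19 at up to 10% mitochondrial UMIs, 1.18 in cells of 10000 to 30000 UMIs and 0.908 as a mean over cells.

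The macrophage-like day 7 to day 3 ratio (0.947) was 0.957 with own clustering, 0.959 as a mean over cells, 0.971 without doublet removal and with all copies, 0.972 without mitochondrially encoded and ribosomal protein UMIs, 0.923 without cells over 30000 UMIs and without either copy, 0.915 at up to 10% mitochondrial UMIs and 0.886 in cells of 10000 to 30000 UMIs. Its day 14 to day 3 ratio (0.876) was 0.851, 0.9, 0.861, 0.855, 0.860, 0.852 and 0.839 with own clustering, as a mean over cells, without doublet removal, without mitochondrially encoded UMIs, without cells over 30000 UMIs, at up to 10% mitochondrial UMIs and in cells of 10000 to 30000 UMIs. The neutrophil to macrophage ratio of day 3 (0.449) was 0.513 as a mean over cells, 0.462 without doublet removal, 0.428 without mitochondrially encoded UMIs and at up to 10% mitochondrial UMIs, 0.382 without ribosomal protein UMIs as well, and 0.775 in cells of 1000 to 5000 UMIs, and cells of 10000 to 30000 UMIs gave no value. The fibroblast to macrophage ratio of day 7 (0.893) was 0.914, 0.977, 0.919, 0.846, 0.762, 0.923, 0.738, 0.878 and 0.870 with own clustering, as a mean over cells, without doublet removal, without mitochondrially encoded and ribosomal protein UMIs, without cells over 30000 UMIs, at up to 10% mitochondrial UMIs, in cells of 10000 to 30000 UMIs, with all copies and with neither. The settings on Cox8a, Ndufa4, depth windows, shared barcodes and the cluster with fibroblast markers were chosen after seeing the data. No paired analysis was possible because each day has 1 library. Leaving out a replicate was not possible for the same reason.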

Other observations

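The clusters with several cell cycle genes among their 10 leading genes, one led by Pf4 and C1qb and one by Tagln and Ube2c, together had a larger share of member UMIs than all other kept cells of the same library, whatever their type. The share was 2.840% against 1.865% at day 0, 2.162% against 1.785% at day 3, 2.159% against 1.627% at day 7 and 2.217% against 1.528% at day 14, from 8, 75, 52 and 18 cells in these clusters. The ratios were 1.52, 1.21, 1.33 and 1.45, above 1 in each of the 4 libraries. At day 3, however, the cluster led by Tagln and Ube2c had 2.840% (39 cells), no more than the neighbours split from the same parent cluster that had no cell cycle gene among their leading genes, at 2.885% (Mt2 and Saa3, 35 cells) and 3.388% (Tagln and Acta2, 17 cells). The lowest value noted was in an unnamed cluster of 52 cells led by Meg3 and Ank2, at 0.258% (0.227 to 0.292), with a median of 1516 UMIs per cell.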
